A study of Mus musculus with 24 samples.

Results

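The genes described here are 5 members of the regenerating islet-derived (Reg) family, Reg1, Reg3a, Reg3b, Reg3g and Reg4, together with Retnlb, which encodes resistin-like molecule beta (RELMβ). They were chosen by name as an epithelial antimicrobial response, and each was found by matching the accession of its array probe to the gene symbol, which gave 6 genes of the 45616 gene names on the array and 1 probe for each. RNA of 24 colon samples, from the distal colon per the methods, of C57BL/6J mice bought at 7 weeks of age was measured on 1-color Agilent arrays, with 1 sample per array. The groups held 4 arrays each: M + LFD and M + HFD (males, sham-operated per the methods), F + LFD and F + HFD (females, also sham-operated) and F(OVX) + LFD and F(OVX) + HFD (ovariectomized females). LFD and HFD are a low-fat diet with 10% and a high-fat diet with 45% of energy from fat, fed for 14 weeks. The mice of all 6 groups had received 1 injection of 10 mg/kg azoxymethane, a carcinogen, and then 3 cycles of 1.5% dextran sulfate sodium in drinking water, which inflames the colon, and they were killed 75 days after the injection. No group without the carcinogen and the colitis was included, so each comparison is between diets, sexes or surgery within this colitis and tumor model, and it is not stated whether tumors were part of the RNA samples.

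Reg proteins are small secreted proteins with a C-type lectin fold. In the gut, Reg3b and Reg3g are made by enterocytes and secretory cells. Both bind bacterial cell walls and help to keep bacteria away from the epithelium, with Reg3g acting on Gram-positive bacteria, and both are induced through microbial signals and interleukin-22. Reg3a is a related lectin. Reg1 is a growth factor for epithelial and pancreatic cells that is abundant in pancreatic acinar cells. Reg4 marks the deep crypt secretory cells of the colon, which support the stem cells. Retnlb is made by colonic goblet cells. Its product acts on bacteria and on parasitic worms, and it is induced by bacterial colonization and by type 2 cytokines.

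In the RefSeq gene table for GRCm38.p6, Reg3b, Reg3a, Reg1 and Reg3g lie in 1 cluster on chromosome 6, in that order with Reg3d and Reg2 between them. Reg4 lies on chromosome 3, and Retnlb lies on chromosome 16 beside Retnla. The promoter table of the same build held 5 of the 6 genes, all but Retnlb. The 120 bases just before the start of Reg3b and of Reg3g, the pair whose signals moved most closely together below, are shown beside those of their cluster neighbour Reg3a, which was near background on most arrays. They are printed from 5′ to 3′ on the strand of the gene, and capitals mark TATAAA, the core of a TATA box.

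Reg3b, chr6:78370765-78370884, plus strand: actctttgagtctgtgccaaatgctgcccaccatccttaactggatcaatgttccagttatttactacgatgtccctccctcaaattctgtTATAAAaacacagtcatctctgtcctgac
Reg3g, chr6:78468875-78468994, minus strand: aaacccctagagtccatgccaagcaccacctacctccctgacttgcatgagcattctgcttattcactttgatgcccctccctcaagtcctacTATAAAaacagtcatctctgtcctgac
Reg3a, chr6:78380589-78380708, plus strand: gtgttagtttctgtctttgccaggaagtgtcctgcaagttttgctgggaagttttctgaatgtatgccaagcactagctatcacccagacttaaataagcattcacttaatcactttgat

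TATAAA began 29 bases before the start of Reg3b and 27 bases before that of Reg3g, and it was also found 30 bases before the start of Reg1. In a global alignment, 88 of the 120 bases (73.3%) of Reg3b and Reg3g were identical, against 58.3% for Reg3b and Reg3a and 59.2% for Reg3g and Reg3a. The 250 bases before each start were searched on both strands for 3 motifs that do not overlap each other in these promoters. TATAAA was found in 12.4% of the 32851 promoters of the table. TTCNNNGAA, the core of a STAT site, was found in 7.02% of all promoters and among these genes in Reg3b, where it began 129 bases before the start. TGANTCA, the core of an AP-1 site, was found in 6.75% of all promoters and among these genes in Reg1, at 117 bases. None of the 3 was present in the windows of Reg3a and Reg4. These matches describe the letters only.

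The arrays had no saturated spots, and their share of probes with a signal well above background ran from 40.5% to 61.9%. On 3 of the 4 M + LFD arrays, markers of the tissue itself stood apart. Hoxb13, a homeobox gene of the distal colon, was at a log2 signal of 2.18 on M + LFD replicate 1, where it was not well above background, and at 5.04 on replicate 2, against 12.58 to 14.79 on the other 22 arrays. The mean log2 signal of 11 anterior Hox genes, which mark more proximal gut, was 8.96 and 8.78 on the same pair of arrays and at most 7.64 elsewhere. On M + LFD replicate 3, 9 of 9 pancreatic acinar markers were well above background with a mean log2 signal of 15.62, against at most 4.90 on any other array. That 4.90 was on M + LFD replicate 1, where 7 of the 9 were well above background, against 1 to 4 on the remaining arrays. All 8 pan-epithelial markers were well above background on every array, and the log2 of their summed signal stayed between 18.05 and 18.67. The part of these arrays in the results below was not tested, and the values are therefore given with and without them. Males, females and ovariectomized females were each hybridized on 1 slide of 8 arrays with the LFD arrays in 1 row and the HFD arrays in the other, so sex or surgery cannot be told apart from the slide, nor diet from the row.

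Reg3b, Reg3g, Reg4 and Retnlb were measured on most arrays, and Reg3b and Retnlb were the most variable between arrays of the same group. All values are quantile-normalized log2 signals, on which 1 unit is a doubling. Reg3b was well above background on 21 of 24 arrays, and its highest signal was 15.01. This was a spread of 3418-fold when taken against the lowest signal that counted as well above background on the array where it was dimmest. Retnlb was well above background on 23 arrays, and its highest signal was 15.51, 4814-fold above the same limit. Reg3g and Reg4 were well above background on all 24 arrays, with spreads of 347.4-fold and 16.15-fold. The SD within groups was 3.34 for Reg3b and 2.80 for Retnlb, the highest and the second highest of the 19935 genes that were well above background on at least 20 arrays, among which the median SD was 0.33. With spots not well above background raised, where lower, to the limit of their array, the SDs were 3.17 and 2.76, and both genes kept these ranks. Reg3g ranked 39th with an SD of 1.97, and Reg4 ranked 370th with an SD of 1.1. Fewer cells that make a transcript and less transcript per cell cannot be told apart in RNA of whole tissue.

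**Figure D1:**
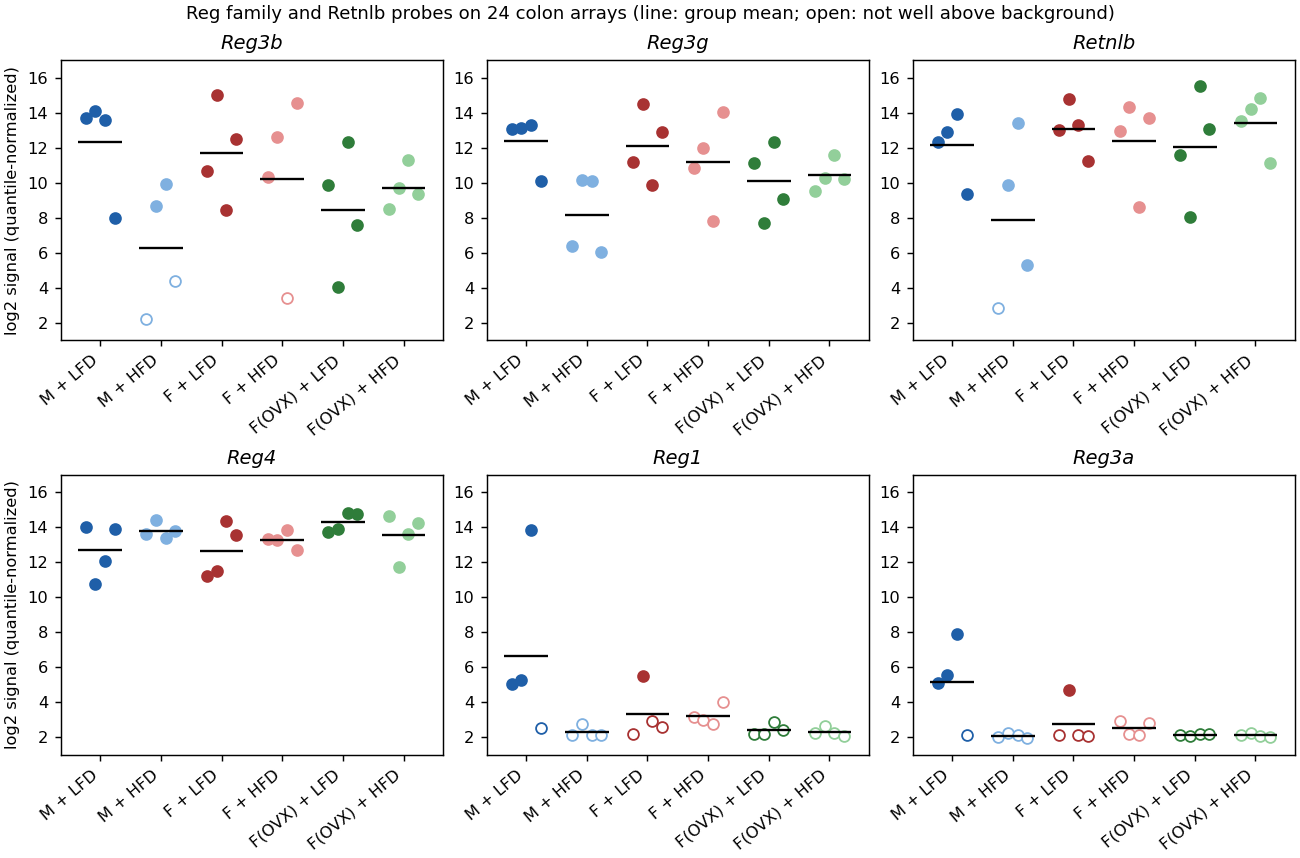
Quantile-normalized log2 signal (vertical axis) of each of the 6 genes on the 24 arrays, by group (horizontal axis, 4 arrays each in order of replicate number). Lines are group means, and open circles are spots not well above background. Reg3b and Retnlb spread over more than 12 log2 units, open circles included, Reg4 stays between 10.77 and 14.79, and Reg1 and Reg3a are filled on 4 arrays each.

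Reg3b and Reg3g, the bacterial-wall-binding lectins, were lower in M + HFD than in M + LFD, and Retnlb was lower in mean without passing the thresholds. In M + LFD the log2 signal of Reg3b was 13.66, 14.09, 13.59 and 8.0 on replicates 1 to 4, and in M + HFD it was 2.19, 8.65, 9.94 and 4.37. Replicates 1 to 3 of M + LFD lay above every M + HFD array, whereas replicate 4 lay below 2 of them, so the groups overlapped. On M + HFD replicates 1 and 4, the M + HFD arrays with the highest posterior Hox signal, the spot was not well above background. The means were 12.34 ± 2.90 (SD, n = 4) and 6.28 ± 3.63, a log2 difference of -6.05 (SE 1.95, 95% confidence interval -10.5 to -1.61), where 2 of the 4 M + HFD values are not measured levels. Those spots were raised, where lower, to the lowest signal that was well above background on their array. Reg3b was then 55-fold lower in M + HFD. This changed replicate 1 only, because the 4.37 of replicate 4 was not under that limit although the spot did not pass. The 55-fold is therefore not a strict lower bound.

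For Reg3g the log2 signal was 13.08, 13.10, 13.31 and 10.12 in M + LFD, and 6.35, 10.16, 10.07 and 6.05 in M + HFD. The groups nearly separated: the lowest M + LFD array, replicate 4, lay just under the highest M + HFD array. The difference was -4.25 (SE 1.15, 95% confidence interval -6.87 to -1.62), 19-fold lower in M + HFD. Differentially expressed genes (DEGs) were those with at least a 1.5-fold difference and an unadjusted p below 0.05 by limma, the 2 thresholds that "passed" refers to throughout. Reg3b and Reg3g passed these thresholds in males, and 4.3% of the 20516 genes tested did. Reg3b entered the test through M + LFD, whose 4 arrays all showed it well above background, and it was not tested when all 8 arrays had to show it, so that its call is no support for the list. Reg3g was well above background on all 8. Both had a Benjamini-Hochberg adjusted p of 0.8 by limma over all genes, and by this measure no gene of the comparison passed 0.05, although 1251 genes had an unadjusted p below it. In exact two-sided permutation tests of the diets, where 4 against 4 arrays allow a smallest p of 0.0286, p was 0.0857 for Reg3b and 0.0571 for Reg3g.

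The differences in males were smaller without the M + LFD arrays that stood apart. Without M + LFD replicates 1 and 2 the difference was -4.51 for Reg3b (SE 2.51) and -3.56 for Reg3g (SE 1.54), and neither passed the thresholds, while 4.22% of all genes did. Without replicates 1, 2 and 3, which left replicate 4 as the only M + LFD array under the assumption that it varies like the M + HFD arrays, the differences were -1.72 (SE 3.02) and -1.96 (SE 1.90). Both genes passed the thresholds when any 1 of the 8 arrays was left out, with differences from -7.50 to -4.69 for Reg3b and from -5.01 to -3.54 for Reg3g. With the anterior Hox score as a covariate, Reg3g remained a DEG at -4.15 (SE 1.56) and Reg3b did not, at -5.31 (SE 2.61).

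Retnlb, the goblet cell product, had log2 signals of 12.32, 12.88, 13.94 and 9.37 in M + LFD and of 2.86, 9.84, 13.42 and 5.28 in M + HFD. The groups overlapped, since M + HFD replicate 3 lay above 3 of the 4 M + LFD arrays, and the lowest value was not well above background. The difference of -4.28 (SE 2.14, 95% confidence interval -9.16 to 0.61) did not pass the thresholds (limma adjusted p = 0.824, exact permutation p = 0.2). Leaving out M + HFD replicate 3 alone made Retnlb a DEG, at -6.13, and so did 1 fit of all 24 arrays, at -4.28. Without M + LFD replicates 1 and 2 the difference was -3.80 (SE 2.97), and without replicates 1 to 3 it was -1.52 (SE 3.92).

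Reg4, the deep crypt secretory cell marker, had log2 signals of 14.03, 10.77, 12.06 and 13.91 in M + LFD and of 13.63, 14.39, 13.36 and 13.80 in M + HFD. All arrays held a strong signal, and the M + LFD arrays lay both above and below those of M + HFD. The difference of 1.1 (95% confidence interval -0.47 to 2.68, exact permutation p = 0.314) did not pass the thresholds. Of the 4 genes tested in males, 2 therefore passed, both lower, and the median difference of the 4 was -4.26 against 0.01 for all genes tested, as a description, since Reg3b and Retnlb entered through M + LFD alone.

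**Figure D2:**
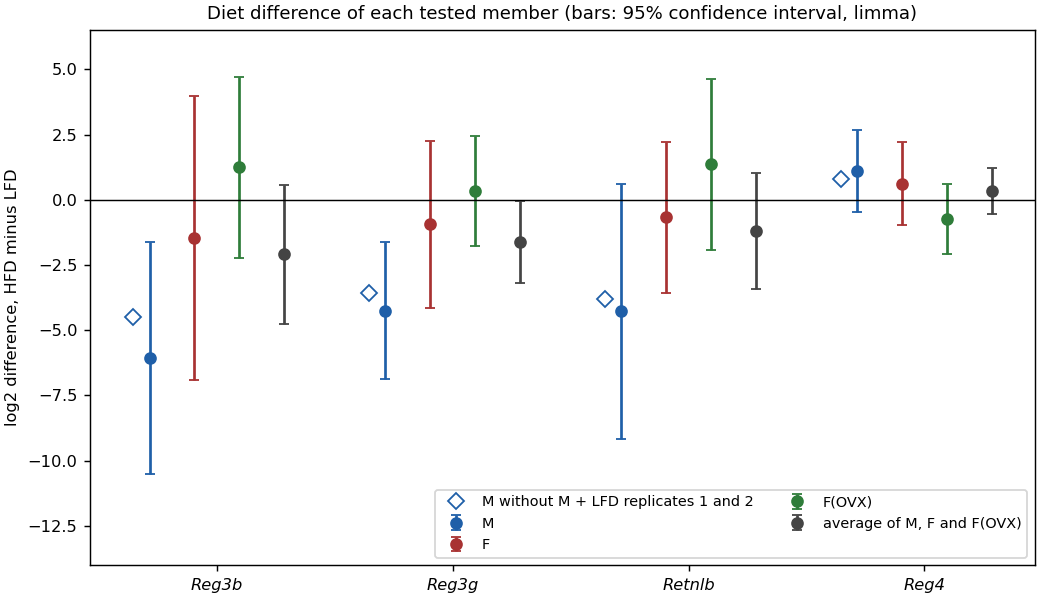
Log2 difference of HFD minus LFD (vertical axis) for the 4 genes that could be tested (horizontal axis), in males, females and ovariectomized females and as the average of the 3. Points are limma estimates with 95% confidence intervals, and open diamonds give the estimate in males without M + LFD replicates 1 and 2, with no interval drawn. The interval lies below 0 for Reg3b and Reg3g in males and for the average of Reg3g, and it spans 0 for all others.

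Among females, no gene of the set differed between the diets beyond the spread of the arrays. Reg3b had log2 signals of 10.68, 15.01, 8.44 and 12.52 in F + LFD and of 10.30, 12.61, 3.39 and 14.54 in F + HFD. The groups overlapped over nearly their whole range, and the value of 3.39 on F + HFD replicate 3 was not well above background. The difference was -1.45 (95% confidence interval -6.90 to 4.00, exact permutation p = 0.629). Without F + HFD replicate 3 it turned to 0.82.

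Reg3g showed the same order of arrays, with 11.19, 14.49, 9.84 and 12.91 in F + LFD and 10.85, 11.96, 7.81 and 14.05 in F + HFD. Replicate 2 was the highest F + LFD array and replicate 4 the highest F + HFD array for both genes, and replicate 3 was the lowest in each diet. The difference was -0.94 (95% confidence interval -4.15 to 2.27, exact permutation p = 0.6), and 0.18 without F + HFD replicate 3. Retnlb had values of 13.01, 14.76, 13.30 and 11.21 in F + LFD and of 12.97, 14.33, 8.60 and 13.68 in F + HFD, with a difference of -0.67 (95% confidence interval -3.57 to 2.22, exact permutation p = 0.686). It, too, was lowest on F + HFD replicate 3, and without that array the difference was 0.59. Reg4 had values of 11.22, 11.51, 14.38 and 13.54 in F + LFD and of 13.30, 13.30, 13.83 and 12.71 in F + HFD, with a difference of 0.62 (95% confidence interval -0.96 to 2.20, exact permutation p = 0.429). Thus 0 of the 4 genes tested were DEGs by limma at an unadjusted p below 0.05, where 1.2% of all genes were. By the methods' t-test 0 were as well, and its share over all genes is not given here. Adjusted p-values were 0.991 for all 4.

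In ovariectomized females the means of Reg3b, Reg3g and Retnlb lay slightly higher with HFD, again within the spread. Reg3b had log2 signals of 9.86, 4.05, 12.34 and 7.60 in F(OVX) + LFD and of 8.51, 9.68, 11.30 and 9.32 in F(OVX) + HFD. The HFD arrays lay inside the range of the LFD arrays, whose SD of 3.52 was larger than the 1.17 of the HFD arrays. The difference was 1.24 (95% confidence interval -2.23 to 4.71, exact permutation p = 0.6), and it turned to -0.23 without F(OVX) + LFD replicate 2.

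Reg3g was at 11.13, 7.70, 12.35 and 9.09 in F(OVX) + LFD and at 9.53, 10.29, 11.59 and 10.21 in F(OVX) + HFD, a difference of 0.34 (95% confidence interval -1.76 to 2.45, exact permutation p = 0.771). As for Reg3b, the lowest array was F(OVX) + LFD replicate 2, without which the difference was -0.45; it was -0.05 without F(OVX) + HFD replicate 3. Retnlb was at 11.56, 8.04, 15.51 and 13.07 in F(OVX) + LFD and at 13.49, 14.18, 14.81 and 11.14 in F(OVX) + HFD, with a difference of 1.36 (95% confidence interval -1.92 to 4.64, exact permutation p = 0.514). Reg4 was at 13.72, 13.89, 14.79 and 14.75 in F(OVX) + LFD and at 14.66, 11.71, 13.62 and 14.26 in F(OVX) + HFD. Its difference of -0.73 (95% confidence interval -2.08 to 0.62, exact permutation p = 0.4) had the opposite sign to that in males and females. Here, too, 0 of the 4 genes tested were DEGs by limma at an unadjusted p below 0.05, against 2.19% of all genes. By the methods' t-test 0 were as well, and its share over all genes is not given here.

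Averaged over males, females and ovariectomized females, Reg3g alone of the 4 genes passed the thresholds. Its log2 difference was -1.62 (SE 0.76, 95% confidence interval -3.19 to -0.04, limma adjusted p = 0.984), and 0.773% of all genes were DEGs in this comparison. The exact permutation of the diets within each sex or surgery, over 343000 assignments, gave p = 0.082. Without M + LFD replicates 1 and 2 the average was -1.39 (SE 0.85) and did not pass. The call was also lost on leaving out any 1 of 14 arrays, with an average between -1.94 and -1.24 over all 24 omissions; these 14 were M + LFD replicates 1, 2 and 3, M + HFD replicates 1 and 4, F + LFD replicates 2 and 4, F + HFD replicates 1 and 3, F(OVX) + LFD replicates 1 and 3 and F(OVX) + HFD replicates 1, 2 and 4. The averages of Reg3b (-2.09, exact permutation p = 0.167), Retnlb (-1.20, p = 0.334) and Reg4 (0.33, p = 0.478) did not pass.

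Whether the diet effect differed between the sexes was tested as an interaction in 1 fit of all arrays. For the effect in males minus that in ovariectomized females, 3 of the 4 genes passed the DEG thresholds, as did 6.16% of all genes. The interaction was -7.29 for Reg3b (SE 3.13, limma adjusted p = 0.616), -4.59 for Reg3g (SE 1.85, adjusted p = 0.585) and -5.64 for Retnlb (SE 2.63, adjusted p = 0.661). Reg4, with an interaction of 1.83 (SE 1.04), did not pass. The 3 genes had lower means with HFD in males and higher means with HFD in ovariectomized females.

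None of these 3 passed without M + LFD replicates 1 and 2, where the interactions were -5.75 (SE 3.60) for Reg3b, -3.90 (SE 2.15) for Reg3g and -5.17 (SE 3.09) for Retnlb. Single arrays also ended the calls. For Reg3g these were M + HFD replicates 1 and 4 and F(OVX) + LFD replicate 2, with a smallest difference of -3.80. For Reg3b they were M + LFD replicates 1, 2 and 3, M + HFD replicates 1 and 4, F(OVX) + LFD replicate 2 and F(OVX) + HFD replicate 3, with a smallest difference of -5.82. For Retnlb 10 of the 16 arrays did so (M + LFD replicates 1 to 3, M + HFD replicates 1 and 4, F(OVX) + LFD replicates 1 and 2 and F(OVX) + HFD replicates 1 to 3), with a smallest difference of -3.98.

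The effect in males minus that in females was -4.60 for Reg3b (SE 3.13), -3.31 for Reg3g (SE 1.85), -3.60 for Retnlb (SE 2.63) and 0.48 for Reg4 (SE 1.04). None passed by limma at an unadjusted p below 0.05, where 2.95% of all genes did. The effect in ovariectomized females minus that in females lay between -1.35 (Reg4) and 2.69 (Reg3b), and 0 of the 4 genes passed by limma at an unadjusted p below 0.05, with 1.52% of all genes passing. The narrowest of these 4 confidence intervals, that of Reg4, ran from -3.51 to 0.81.

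The order of the 6 groups differed between the genes, and in each of the 4 tested genes the gap between neighbours in the order was smaller than the larger SD of the pair. Reg3b and Reg3g had the same order of mean log2 signal. M + LFD was highest (12.34 and 12.40), followed by F + LFD (11.66 and 12.11), F + HFD (10.21 and 11.17), F(OVX) + HFD (9.70 and 10.41) and F(OVX) + LFD (8.46 and 10.06), and M + HFD was lowest (6.28 and 8.16). Retnlb was highest in F(OVX) + HFD (13.41 ± 1.60), close in F + LFD (13.07 ± 1.46), F + HFD (12.40 ± 2.59), M + LFD (12.12 ± 1.96) and F(OVX) + LFD (12.04 ± 3.13), and lowest in M + HFD (7.85 ± 4.71). Reg4 was highest in F(OVX) + LFD (14.29 ± 0.56) and lowest in F + LFD (12.66 ± 1.54), with M + HFD at 13.79, F(OVX) + HFD at 13.56, F + HFD at 13.28 and M + LFD at 12.69.

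Levels between sexes, averaged over the diets, share the slide with the sex. Retnlb was lower in males than in females by a log2 difference of -2.75 (SE 1.32, limma adjusted p = 0.277), with a 95% confidence interval of -5.49 to -0.0044, which passed the thresholds by a narrow margin, as 5.57% of all genes did. It no longer passed without M + LFD replicates 1 and 2 (-2.98, SE 1.54) or on leaving out any 1 of 11 of the 16 arrays, all but M + LFD replicate 3, M + HFD replicates 2 and 3, F + LFD replicate 4 and F + HFD replicate 3. Its smallest value in these omissions was -1.91. Reg3b, Reg3g and Reg4 differed by -1.63, -1.36 and 0.27 and did not pass. Between ovariectomized and intact females the differences were -1.86 for Reg3b, -1.40 for Reg3g, 0.95 for Reg4 and -0.01 for Retnlb. None of the 4 passed by limma at an unadjusted p below 0.05, and 2.15% of all genes did. Without F + HFD replicate 3, Reg3b (-2.99) and Reg3g (-1.96) passed. Reg4 passed without F + LFD replicate 3 (1.24) or F(OVX) + HFD replicate 2 (1.26).

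Reg3b and Reg3g varied together from array to array in males, females and ovariectomized females. Over the 24 arrays Pearson's r was 0.98 and Spearman's rho 0.97, each with a permutation p of 1e-05, the smallest that 100000 permutations can give, and adjusted p-values over the 6 pairs of genes of 3e-05 and 6e-05. Within males, females and ovariectomized females (8 arrays each) r was 0.98 in each, and it was 0.97 for deviations from the group means (permutation p within groups = 1e-05, adjusted p = 6e-05) and 0.97 without M + LFD replicates 1 to 3. Without the pair of arrays farthest from the median of Reg3b it was 0.98. The probe sequences were not used here, so reads of one transcript by the probe of the other were not tested.

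Retnlb followed Reg3b less closely. Its r with Reg3b was 0.80 (permutation p = 1e-05, adjusted p = 3e-05) and its rho 0.64 (permutation p = 0.00113, adjusted p = 0.00339). Within slides r was 0.94 in males, 0.80 in females and 0.84 in ovariectomized females, for deviations from the group means it was 0.82 (permutation p = 0.00014, adjusted p = 0.00042), and without the pair of arrays farthest from the median of Reg3b it was 0.71. With Reg3g, r was 0.76 (permutation p = 4e-05, adjusted p = 8e-05) and rho 0.59 (permutation p = 0.00262, adjusted p = 0.00524), with r between 0.69 and 0.90 within slides, 0.76 for deviations from the group means (permutation p = 0.00083, adjusted p = 0.00166) and 0.59 without the pair farthest from the median of Reg3g.

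Reg4 was weakly and inversely related to both lectins over all arrays, a relation that did not pass a test within groups. Its r was -0.45 with Reg3b (permutation p = 0.0245, adjusted p = 0.0342) and -0.45 with Reg3g (permutation p = 0.0285, adjusted p = 0.0342), with rho of -0.54 (permutation p = 0.00658, adjusted p = 0.00987) and -0.51 (permutation p = 0.0111, adjusted p = 0.0133). These permutations ran across groups. For deviations from the group means, permuted within groups, r was -0.30 with Reg3b (permutation p = 0.124, adjusted p = 0.187) and -0.28 with Reg3g (permutation p = 0.169, adjusted p = 0.203). On single slides r with Reg3b was -0.54 in males, -0.53 in females and -0.04 in ovariectomized females, and r with Reg3g was -0.51, -0.54 and -0.03; the slides were not tested against each other. Over all arrays, without the pair of arrays farthest from the median r was -0.50 with each. Reg4 and Retnlb had an r of -0.25 and a rho of -0.25 (permutation p = 0.247 for each, adjusted p = 0.247), and an r of -0.29 without the pair farthest from the median of Retnlb.

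**Figure D3:**
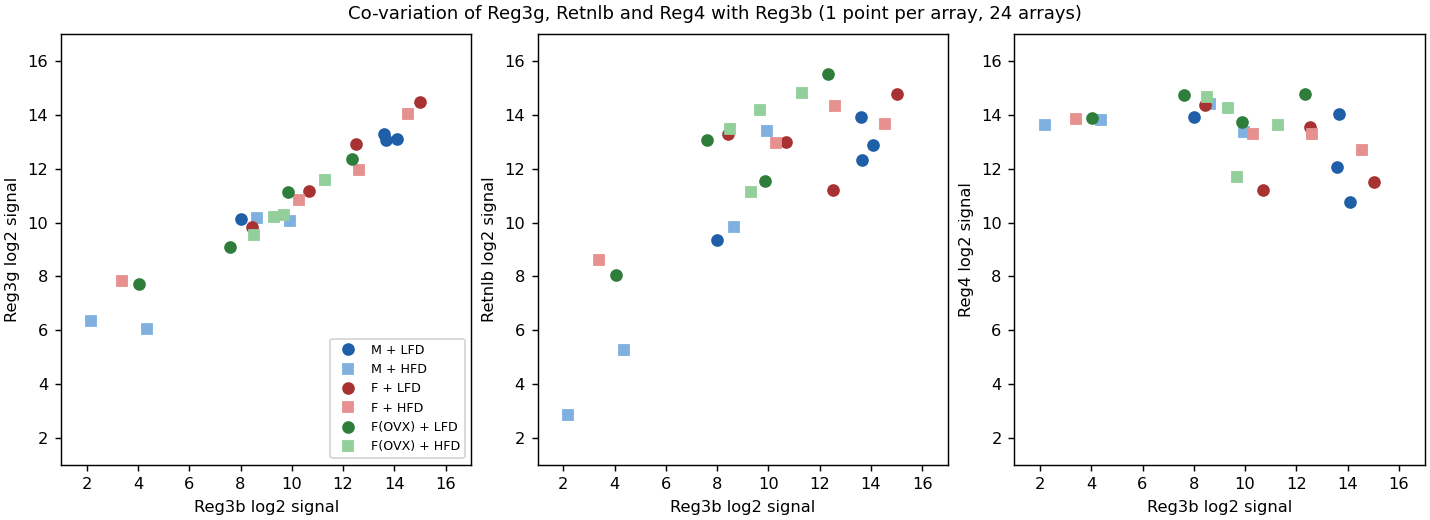
Log2 signal of Reg3g, Retnlb and Reg4 (vertical axes) against that of Reg3b (horizontal axes), with 1 point for each of the 24 arrays, circles for LFD and squares for HFD, colored by group. Reg3g lies along 1 line with Reg3b (r = 0.98), Retnlb scatters around its line (r = 0.80), and Reg4 is flat or falling (r = -0.45).

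The genes most like each member over the 24 arrays were sought among the 11877 genes that were well above background on all of them. The values are given as a description, since the arrays share slide and group. Ada, adenosine deaminase, was the most similar gene to both Reg3b (r = 0.91) and Reg3g (r = 0.91), ahead of 1110059E24Rik (0.88) and Tmsb10, an actin-binding thymosin (0.87), for Reg3b and ahead of Lrmda (0.85) and 1110059E24Rik (0.84) for Reg3g. Retnlb was most like Ccl9, a chemokine that attracts myeloid cells (0.88), Ang6, a ribonuclease of the angiogenin family (0.87), and 1810037I17Rik (0.87). The nearest genes to Reg4 were less similar. They were Serpina9, a protease inhibitor (0.71), Snrnp25, a protein of the minor spliceosome (0.70), and Isg20l2, an exonuclease of ribosome biogenesis (0.70).

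Reg1 and Reg3a were near background on most arrays and did not meet the filter of the limma fit in any comparison with all its arrays. Each was well above background on 4 arrays, the same ones: M + LFD replicates 1, 2 and 3 and F + LFD replicate 2. Reg1 was at 5.02, 5.29 and 13.81 on these M + LFD arrays and at 5.51 on the F + LFD array. Reg3a was at 5.08, 5.54 and 7.87 and at 4.71. Over all 24 arrays their medians were 2.62 and 2.15. Thus the arrays with a signal for these genes were 3 of those with high Reg3b, plus the array where Reg3b and Reg3g were highest of all (15.01 and 14.49).

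With no M + HFD array well above background, Reg1 was at least 5.32-fold and Reg3a at least 1.86-fold higher in M + LFD, in which 3 of 4 arrays measured them. The exact permutation p of 0.0571 for Reg1 and 0.0857 for Reg3a belongs to the differences of the group means (-4.387 and -3.065). Those differences include values not well above background, and the bounds themselves were not tested. Without M + LFD replicate 3 the bound for Reg1 was 1.02-fold, and none could be given for Reg3a, whose mean was then under the limit. The bounds set the mean of the brighter group against the lowest signal that passed as well above background on each array of the other. They hold against that limit only and are not strict minima. A spot at or over it can still fail to pass, as Reg3b did on M + HFD replicate 4. The array with the highest value of both genes, M + LFD replicate 3, was that with the high mean of the pancreatic acinar markers. Reg2, like Reg1 a Reg gene of the pancreas, was at 13.53 on this array and not well above background on the other 23. Reg3d was at 9.80 there against at most 5.23 elsewhere. On M + LFD replicates 1 and 2 and on F + LFD replicate 2 Reg2 was not well above background. The part of the acinar signal in the values of Reg1 and Reg3a was not tested.

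**Figure D4:**
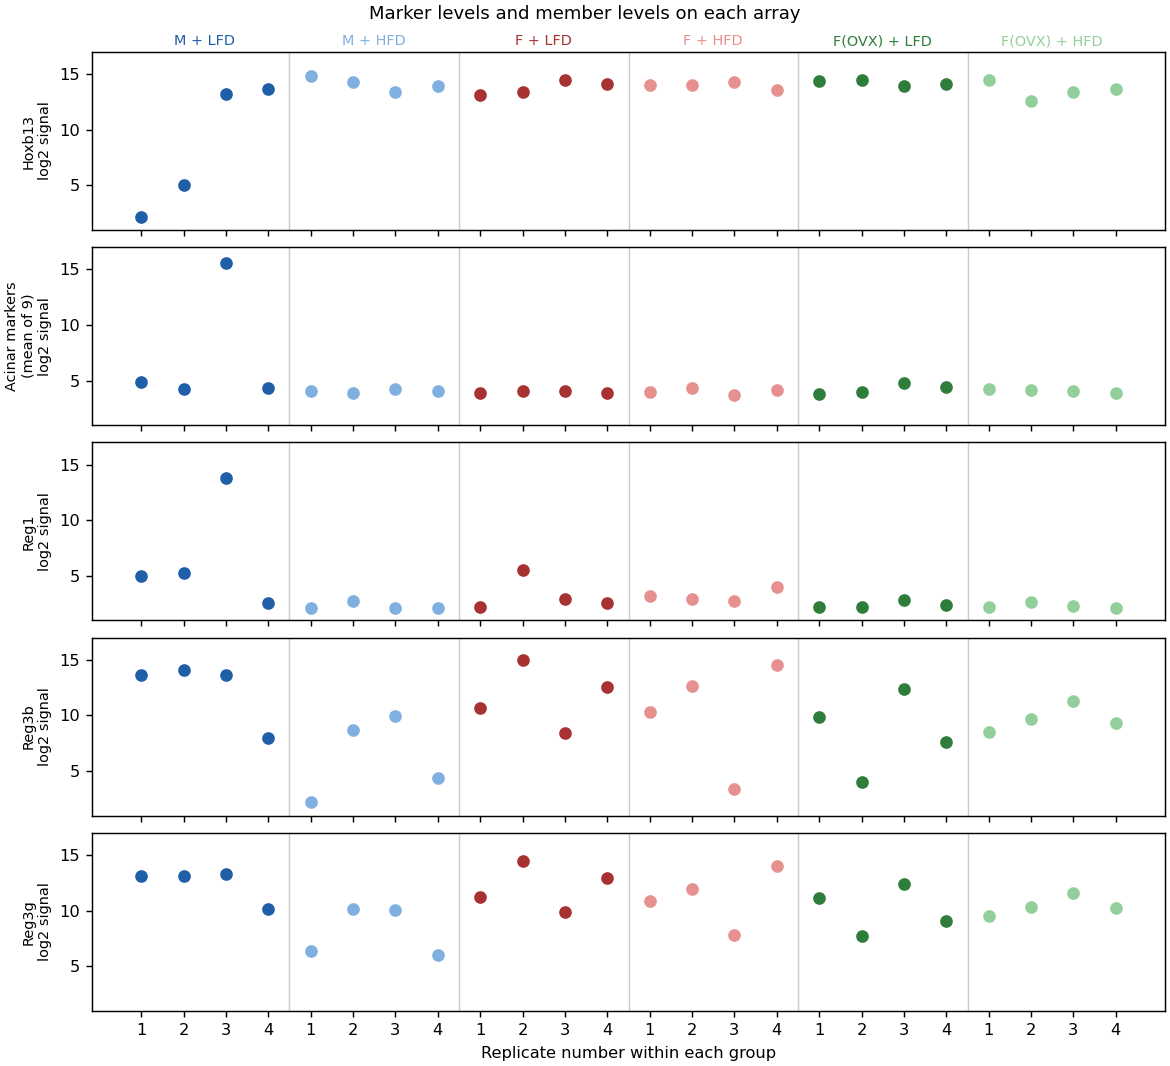
Log2 signal on each of the 24 arrays (horizontal axis, replicate number within each group) of Hoxb13, of the mean of 9 pancreatic acinar markers, and of Reg1, Reg3b and Reg3g (vertical axes). Hoxb13 is low on M + LFD replicates 1 and 2, the acinar markers are high on M + LFD replicate 3, and Reg3b and Reg3g are high on all 3 of these arrays.

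Of the 5 other genes of the Reg and resistin families on the array (Reg2, Reg3d, Retn, Retnla and Retnlg), none was a DEG by limma at an unadjusted p below 0.05 in the 3 diet comparisons, with 2 tested in males and 1 in each of the others. Retnla, a resistin-like product of macrophages and epithelium, had a difference of -0.96 (SE 1.04) in males, -0.53 (SE 0.68) in females and -0.90 (SE 0.68) in ovariectomized females. That of Reg3d in males was -1.28 (SE 1.1).

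The cytokines known to induce these genes were mostly below detection. Il22, the main inducer of the Reg3 lectins, was well above background on 1 of 24 arrays, in M + HFD, and Il17a and Il13, an inducer of Retnlb, on none. Of the 35 cytokines, receptors and transcription factors of the pathway, 21 could be tested in males, 24 in females and 21 in ovariectomized females, and their median differences were 0.15, -0.01 and -0.05, against 0.01, -0.00 and 0.01 for all genes. In males Cdx2, a transcription factor of intestinal identity, was lower with HFD (-1.77, SE 0.53) and Il18, an epithelial cytokine, was higher (1.60, SE 0.56). Neither passed without M + LFD replicates 1 and 2 (-1.24 and 0.59). Socs3, the feedback inhibitor of STAT3, was lower with HFD in females (-0.91, SE 0.24). No gene of the list passed in ovariectomized females by limma at an unadjusted p below 0.05. Over all genes tested, 4.3% passed in males, 1.2% in females and 2.19% in ovariectomized females.

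Among other genes of epithelial defence, 21 of the 29 on the array were tested in each diet comparison, and 1 passed in each. Over all genes tested, 4.3% passed in males, 1.2% in females and 2.19% in ovariectomized females. The 1 of 21 is therefore not read as a result about the list. In males the 1 that passed was Nod2, a sensor of bacterial wall fragments (-0.84, SE 0.18), which also passed without M + LFD replicates 1 and 2 (-0.77). Saa3, an acute-phase protein, was lower with HFD in females (-1.96, SE 0.77), and Nos2, which makes nitric oxide, was lower in ovariectomized females (-2.02, SE 0.38). Males had a median difference over the list of 0.04, females one of -0.26 and ovariectomized females one of -0.34. None of the list genes named here and below had a limma adjusted p below 0.8.

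Markers of the cells that make these proteins were compared in the same way. For these and the other cell types below, the shares of all genes that passed were 4.3% in males, 1.2% in females and 2.19% in ovariectomized females. Of 11 goblet cell markers tested, 0 passed by limma at an unadjusted p below 0.05 in males and females, and Spdef, a goblet cell transcription factor, was higher with HFD in ovariectomized females (0.76, SE 0.30). Of 7 deep crypt secretory markers, a list that holds Reg4 itself, 0 passed in males and females and Muc4, a membrane mucin, was higher in ovariectomized females (1.3, SE 0.31). Of 10 absorptive colonocyte markers, Slc26a3, a chloride exchanger (1.1, SE 0.32), and Slc37a2 (3.80, SE 1.05) passed in males, both higher with HFD. Guca2a, guanylin, passed in ovariectomized females, also higher (0.90, SE 0.26). Of the 10 markers, 6 had higher and 4 had lower means with HFD in males, and 7 and 3 in ovariectomized females. None of the 8 pan-epithelial markers passed in any of the 3 comparisons by limma at an unadjusted p below 0.05.

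Among the other cell types, Insl5 (3.33, SE 1.25) and Pyy (0.99, SE 0.36) of 8 enteroendocrine markers passed in males, both higher with HFD. Of the 8 markers, 4 had higher and 4 had lower means with HFD in males, with a median difference of -0.03. Gcg (1.13, SE 0.40) and Tph1 (0.79, SE 0.27) passed in ovariectomized females, both higher, where 7 of the 8 were higher and 1 was lower. Mmp7, a Paneth cell protease that also activates defensins, was lower in males (-2.44, SE 0.74), 1 of 4 Paneth markers tested. Fabp2, a fatty acid-binding protein of the small intestine, was lower in males (-2.43, SE 0.97) and higher in ovariectomized females (1.90, SE 0.73), as was Alpi, intestinal alkaline phosphatase, in the latter (1.82, SE 0.53). Of 5 small intestine markers tested in males, 1 was higher and 4 were lower. In ovariectomized females, 2 of the 4 tested were higher and 2 were lower. Smooth muscle markers were higher in ovariectomized females for 4 of 7 tested, namely Actg2, Cnn1, Des and Tagln, and for 0 of 7 in males and in females. No leukocyte marker, of 9 to 10 tested, passed in any comparison.

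Of the 13 genes of these lists, Hox genes included, that passed in males, 3 also passed without M + LFD replicates 1 and 2, where 4.22% of all genes did. These 3 were Nod2, Slc37a2 (3.26) and Insl5 (0.84). The 13 had been picked for passing on arrays that the second fit shares. Their count is therefore not comparable with the share of all genes and is not read as a result. Hoxd13 (4.75, SE 1.41), a posterior Hox gene, and the anterior Hoxb6 (-3.27, SE 1.43) and Hoxb7 (-2.92, SE 1.24) did not pass without M + LFD replicates 1 and 2. Of 9 anterior Hox genes tested in males, 4 were higher and 5 were lower with HFD, with a median difference of -0.194. Of 3 posterior Hox genes tested, 3 were higher. On M + LFD replicates 1 to 4 the log2 of the summed signal of the 8 small intestine markers was 16.035, 16.21, 14.58 and 13.34. Over the 4 M + HFD arrays it ran from 11.16 to 15.17. The medians were 15.31 and 12.34, higher in M + LFD, where Reg3b and Reg3g also had higher means. The highest values were on the M + LFD arrays with low Hoxb13, and M + LFD replicates 3 and 4 lay below M + HFD replicate 3. The part of the small intestine markers in the diet difference of Reg3b and Reg3g in males was not tested.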

How the data were processed

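RNA of 24 mouse colon samples in 6 groups of 4 was hybridized to 1-color Agilent arrays. The deposited values are spot intensity values on a linear scale (gProcessedSignal, gMedianSignal and gBGMedianSignal), extracted by the authors with Feature Extraction 11.0.1.1, with background subtracted in the first. Deposited flags of 0 or 1, another kind of value, mark spots well above background, saturated or outlying. The methods name 5 animals per group and the labels give 4 samples; groups and replicate numbers came from the labels.

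Control spots were left out, and log2 of the processed signal was normalized by quantiles across arrays, with outlier spots set to missing. Probes were named by matching accessions to RefSeq (GRCm38.p6), whereas the array design was annotated on an older build. A gene took its brightest probe and entered a test where all 4 arrays of at least 1 compared group showed it well above background. Differences were tested with limma (3.58.1; R 4.3.3; lmFit, eBayes), fitted on all genes, with Benjamini-Hochberg adjustment and exact permutations of the diets (70 assignments); they were tested on simulated data. Correlations used 100000 permutations, and promoters were aligned with Biopython 1.88. The number of arrays limits the precision. The labels do not say that the samples of a group came from separate mice, so p-values measure the spread between these samples.

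The genes named are the 6 members, genes of the other lists that passed in a diet comparison (not all of them are reported here), Il22, Il17a, Il13, Reg2, Reg3d and Retnla, the 3 most similar genes to each member, and Hoxb13. Members and lists were chosen with earlier results of these data known. Alternatives covered scaling, background correction, filters, probe summary, the methods' t-test, a Hox covariate, the arrays in the fit and a replicate block; omission of M + LFD replicates 1, 2 and 3 together was added after seeing the data. Same-numbered arrays of the 2 diets deviated together in females (r from 0.26 to 0.58 over all genes) but not in males (-0.26 to 0.01). In ovariectomized females r was 0.33, -0.09, 0.32 and 0.25 for replicates 1 to 4. The replicate number is also the column on the slide, so a pairing of samples cannot be told apart from the place on the slide. The labels name no pairing, and the tests reported are unpaired, with the replicate block as an alternative.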

Additional observations from a re-analysis of the deposited data

Results flagged for a closer look

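Some values lay apart from the other 3 arrays of their group by Dixon's criterion at the 95% level, in 4 of the 36 combinations of gene and group, where chance flags about 1 in 20. Reg3b was 8.0 on M + LFD replicate 4 against 13.59 to 14.09 on the others, and Reg3g was 10.12 on the same array against 13.08 to 13.31. That array was also the only one of its group with neither a low Hoxb13 signal nor a high mean of the acinar markers (4.36). Reg3a was 4.71 on F + LFD replicate 2 against 2.07 to 2.15, and Reg1 was 2.74 on M + HFD replicate 2, a spot not well above background, against 2.11 to 2.15.

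The diet difference in males differed from that in ovariectomized females by limma's interaction test at an unadjusted p below 0.05 for Reg3b (-7.29), Reg3g (-4.59) and Retnlb (-5.64) on the log2 scale, with adjusted p-values from 0.585 to 0.661.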

How the results depend on the processing

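Depth in the sense of signal over background kept Reg1 and Reg3a out of the limma fit of all arrays, and 4 arrays per group limit every difference. The filter was applied to the arrays left in each fit. Without M + LFD replicate 4, Reg1 and Reg3a therefore entered the test, through M + LFD replicates 1 to 3 alone. In males 2 genes passed as reported; 1 did with the filter on all arrays (Reg3b was then untested) or the Hox covariate, 0 without M + LFD replicates 1 and 2 or 1 to 3, and 2 to 4 on leaving out 1 array. For the average over the sexes 1 passed, against 2 with no filter or with the replicate block, 0 without M + LFD replicates 1 and 2 or 1 to 3, without the 2 dimmest arrays or with the Hox covariate, and 0 to 3 on leaving out 1 array. For males minus females 0 passed, against 2 with no filter or with the replicate block and 0 to 3 on leaving out 1 array. For males minus ovariectomized females 3 passed, against 5 with no filter, 1 with the filter on all arrays or the Hox covariate, 0 without M + LFD replicates 1 and 2 or 1 to 3, and 0 to 6 on leaving out 1 array; Reg3b and Retnlb were untested with the filter on all arrays, and Retnlb was also lost with scaling to the 75th percentile (-5.51) and with normexp (-4.37). For the level in males minus females 1 passed, against 0 with normexp, no filter, the filter on all arrays, or without M + LFD replicates 1 and 2 or the 2 dimmest arrays, and 0 to 2 on leaving out 1 array. For ovariectomized minus intact females 0 passed, and 0 to 2 on leaving out 1 array. Reg1 and Reg3a are part of the counts of 4 in males and 6 in males minus ovariectomized females on leaving out 1 array. The higher counts with no filter include 1 or both of these genes, which were near background on most arrays. Such counts are no support for the list. These are counts of members only. The share of all genes that passed can change with the setting, and it is given above mainly for the results as reported. The counts describe how stable the calls were and are not read as results about the members. The causes were not tested.

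Directions turned only where the difference was not called. Reg4 turned to -0.11 in males, -0.073 in the average and -0.74 in males minus females without M + LFD replicates 1 to 3, and to -0.24 in the last with the Hox covariate. Retnlb in ovariectomized minus intact females turned to 0.038 with scaling to the 75th percentile, 0.033 with normexp and 0.15 with the Hox covariate. Leaving out 1 array gave -2.90 to 0.82 (Reg3b), -1.90 to 0.18 (Reg3g) and -1.32 to 0.59 (Retnlb) in females, -0.23 to 2.53 (Reg3b) and -0.45 to 1.1 (Reg3g) in ovariectomized females, -0.16 to 0.96 for Reg4 in males minus females, and -0.64 to 0.66 for Retnlb in ovariectomized minus intact females.

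With the replicate block, Retnlb passed in males (-4.28), Reg3b in the average (-2.09), and Reg3b (-4.60) and Reg3g (-3.31) in males minus females. No other call of a member changed. The block also changed the count over all genes, which in females, where no member passed, rose from 264 to 587. The shares of all genes that passed with the block in the other comparisons are not given here. These calls are therefore not read as results about the members. The block could not be fitted for the level comparisons between sexes or surgery, which lie between the blocks.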
